A study of Mus musculus with 16 samples.

Results

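The 72 histone genes measured among 24028 genes were followed in CD8 T cells that had infiltrated a mouse tumour. The genes were taken by symbol. Every gene whose symbol starts with Hist1h, Hist2h, Hist3h or Hist4h was counted as clustered (63 genes), and H1f0, H1fx, H2afj, H2afv, H2afx, H2afy, H2afz, H3f3a and H3f3b as replacement genes (9 genes). BALB/c mice carried TS/A tumours, which grow from a mammary adenocarcinoma line placed in the mammary pad, and received entinostat (ENT), which inhibits class I HDACs (the histone deacetylases), or vehicle. Dosing was daily, at 20 mg/kg for ENT, and began on day 7 after tumour injection. The 4 groups of 4 libraries were ENT at day 17, vehicle at day 17, ENT at day 10 and vehicle at day 10, so dosing had run for 10 days at day 17 and for 3 days at day 10. Live CD45.2+ CD8+ CD4- cells had been sorted, and the title of the series names treatment duration, proliferation and effector function as its subject. No label states whether different animals gave the 4 libraries of each group. The p-values therefore speak only to the variation among these libraries, part or all of which may be technical.

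Levels are in CPM, counts scaled by library total and TMM factor. All 8 CD8 T cell markers looked at were detected, among them Cd8a, the alpha chain of CD8, at 442 ± 110 CPM in ENT and 370 ± 30.8 CPM in vehicle at day 17, and at 331 ± 22.3 CPM in ENT and 419 ± 14.6 CPM in vehicle at day 10 (SD, n = 4 each). Library totals ran from 554593 counts in ENT day 17 replicate 3 to 6975904 in vehicle day 17 replicate 1. As a gauge of background, reads were also counted in the 1432 genes named Olfr, Vmn1r or Vmn2r, odorant and pheromone receptors with no known place in T cells (receptor genes below). They averaged 0.893 CPM per kb in ENT and 0.612 in vehicle at day 17, and 0.684 in ENT and 0.299 in vehicle at day 10. ENT day 10 replicate 4, the deepest library of its group, held 598 CPM of such reads, against 3368 to 5615 CPM in the other ENT libraries of that day, and stands apart below. Counts of a pair of abundant genes spanned a narrower range than depth. Actb, which encodes cytoplasmic actin, had 1618 to 3265 counts across the 16 libraries, and H3f3b 438 to 2042.

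Histones wrap DNA into nucleosomes (H2A, H2B, H3 and H4) or bind the linker DNA between them (H1). The clustered genes are replication dependent: dividing cells transcribe them in S phase, and their mRNAs classically end in a 3′ stem-loop, bound by the stem-loop binding protein SLBP, instead of a poly(A) tail. Replacement genes are transcribed through the cell cycle, carry introns in several cases, and give polyadenylated mRNAs whose proteins replace the clustered ones at particular sites or in resting cells. The cDNA kit used here, SMART-seq v4, primes on poly(A), so a clustered mRNA without a tail is poorly captured, and the counts of clustered genes do not measure all of their mRNA.

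The stem-loop was looked for in the annotated GENCODE M21 transcripts (GRCm38), as it marks the mRNAs that this cDNA kit is least suited to. It was found in 42 of the 63 clustered genes and in 1 of the 9 replacement genes (H2afx), against 70 of 21951 protein-coding genes (0.319%). There were 9 distinct loops, and the commonest was shared by 22 genes. The sequences below are from genes named in the results, with the 16 bases of the stem-loop in capitals.
Hist1h2ao (chr13:21810893-21810918, plus strand): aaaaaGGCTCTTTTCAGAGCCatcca
Hist2h2aa2 (chr3:96239779-96239804, minus strand): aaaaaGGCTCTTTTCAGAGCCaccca
Hist1h4d (chr13:23581945-23581970, plus strand): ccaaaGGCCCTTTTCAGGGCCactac
Hist4h4 (chr6:136803993-136804018, minus strand): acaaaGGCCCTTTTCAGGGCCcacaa
H2afx (chr9:44335235-44335260, plus strand): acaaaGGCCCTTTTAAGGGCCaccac
The H2A genes Hist1h2ao and Hist2h2aa2 carried the commonest loop, the H4 genes Hist1h4d and Hist4h4 shared another, and the loop of H2afx differed from both in these letters. In 26 of the 42 clustered genes the annotated transcript ended within 200 bases of the loop, and in 16 it ran further. The limit of 200 bases was chosen for this count. Among those 26 the end lay from 3 bases (Hist1h4m) to 185 bases (Hist1h1t) after the loop. The transcript of Hist1h2ao ended 31 bases after its loop, that of Hist1h4d 770 bases after it, and that of Hist4h4 2445 bases after it. The loop was not found in the annotated transcripts of Hist1h1b, Hist1h2bc and Hist2h2be. The transcript of Hist1h1b is annotated at 743 bases, and a loop beyond that end could not be found.

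Replacement genes were the abundant histone transcripts in these poly(A)-primed libraries, which do not measure all clustered histone mRNA of the cells. Per kilobase of exon, their median was 41.5 CPM per kb over the 16 libraries, against 2.83 CPM per kb for the 63 clustered genes. For the 33 clustered genes that passed the filter on low counts it was 7.35 CPM per kb. All tested genes with a length, filtered alike, had a median of 5.36 CPM per kb. H3f3b led at 142 CPM per kb, and H1fx, the lowest replacement gene, had 0.967 CPM per kb. Hist1h2ao stood highest among clustered genes at 90.5 CPM per kb and was the only one of them within the range of the 8 tested replacement genes. The mean of receptor genes was 0.622 CPM per kb, and 56 of the 63 clustered genes lay above it. Grouped by transcript end, the median level was 2.58 CPM per kb for the 26 genes that end near the loop, 2.05 CPM per kb for the 16 that run past it and 3.46 CPM per kb for the 21 with no loop found. For transcripts annotated short, such as Hist1h4k at 312 bases and Hist2h2bb at 381, a loop beyond the annotated end could not be found. A shorter annotated length also raises the level per kb.

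**Figure D1:**
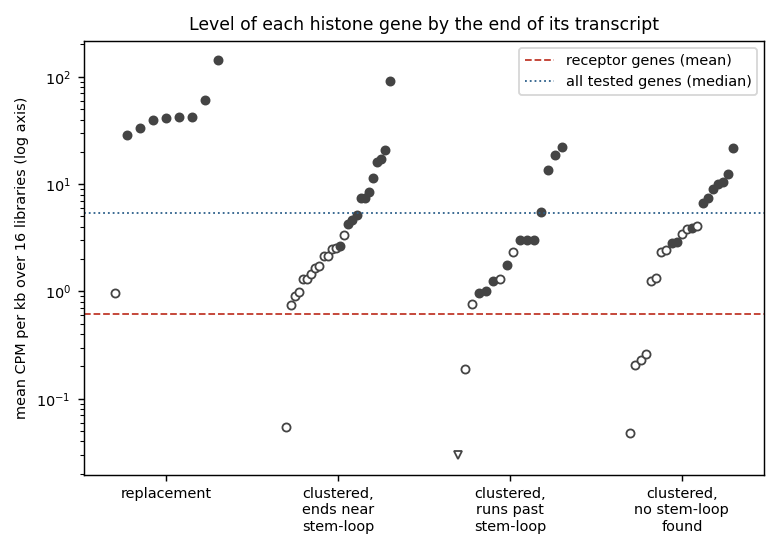
Mean level over the 16 libraries (CPM per kb of exon, log axis) of each of the 72 histone genes, in columns by gene kind and by the end of the annotated transcript, with filled circles for genes that passed the filter on low counts and a triangle at the bottom for Hist3h2a, listed at 0. The dashed line is the receptor mean (0.622 CPM per kb) and the dotted line the median of tested genes (5.36 CPM per kb), and the 3 clustered columns overlap over most of their range.

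The filter on low counts kept 17414 genes, among them 33 clustered and 8 replacement genes, all but H1fx. The 30 clustered genes left out had 0 to 126 counts in total over the 16 libraries. Hist3h2a, an H2A gene, had 0 counts, which allows up to 0.0514 CPM (3 counts over the 16 libraries, counting error only). Near-identical copies bear on this group, since 57 of the 63 clustered genes share a run of 50 bases with another histone gene and the handling of reads with several matches is not given in the sources used here. Of the 24 clustered genes with over 50% of their 50-base runs shared, 9 were tested, and the median over all 24 was 82 counts. Of the other 39 clustered genes, 24 were tested, and the median over all 39 was 177 counts. These counts are not divided by gene length, which differs between the genes, and the source of the gap was not tested.

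H1f0, the linker histone of resting and differentiated cells and a classic gene induced by HDAC inhibition, was higher in ENT group means on both days but did not pass the threshold on either. At day 17 it had 113, 126, 86.3 and 121 CPM in ENT libraries, against 90.0, 81.8, 106 and 57.3 CPM in vehicle libraries. The groups overlapped, through ENT replicate 3 and vehicle replicates 1 and 3. The log2 fold change was 0.43 ± 0.17 (SE; 95% interval 0.0689 to 0.799; edgeR's quasi-likelihood test, adjusted p = 0.0883). At day 10 it had 84.4, 76.5, 78.9 and 101 CPM in ENT libraries, against 48.6, 61.9, 57.5 and 74.8 CPM in vehicle libraries, with no overlap. The log2 fold change was 0.49 ± 0.17 (95% interval 0.124 to 0.853; edgeR, adjusted p = 0.0641). The difference between the effects of both days was −0.05 ± 0.25 (edgeR, adjusted p = 0.947).

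The H1f0 call depended on the settings, while its sign did not on either day. At day 10 it passed with DESeq2 (0.54, adjusted p = 0.017), RLE scaling (0.54, 0.0355), library size alone (0.65, 0.0199), a minimum count of 50 (0.61, 0.0172), the 2 groups alone (0.59, 0.0303) and receptor reads as a covariate (0.57, 0.0392), in edgeR where no other tool is named. It also passed in edgeR when replicate 4 of vehicle at day 10 (adjusted p = 0.0395), replicate 3 of ENT at day 17 (0.048), or replicate 1 (0.046) or 4 (0.0292) of vehicle at day 17 was left out. At day 17 it passed with DESeq2 (0.55, adjusted p = 0.0147), RLE scaling (0.54, 0.0276), library size alone (0.60, 0.0198), a minimum count of 50 (0.62, 0.00843), the covariate (0.53, 0.0376) and without ENT day 17 replicate 3 (0.55, 0.048). The mean of both ENT effects, a comparison added after the data were seen, was 0.46 ± 0.12 (edgeR, adjusted p = 0.00855). The ENT day 10 library with the fewest receptor reads, replicate 4, had the highest H1f0 of its group, 101 CPM.

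Over time H1f0 was 83.6 ± 20.1 CPM at day 17 and 60.7 ± 10.9 CPM at day 10 in vehicle (SD, n = 4 each), a log2 difference of 0.47 ± 0.17 (edgeR, adjusted p = 0.109). In ENT it was 112 ± 17.8 CPM at day 17 and 85.1 ± 10.9 CPM at day 10, a log2 difference of 0.41 ± 0.17 (edgeR, adjusted p = 0.131). By group mean the order was ENT day 17, ENT day 10, vehicle day 17, vehicle day 10, and single libraries overlapped between each neighbour in that order. H1f0 lies at chr15:79028450-79030504 (GRCm38, plus strand) as 1 exon, of which 163 bases overlap the antisense gene Gm49544, and without strand their reads cannot be told apart.

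**Figure D2:**
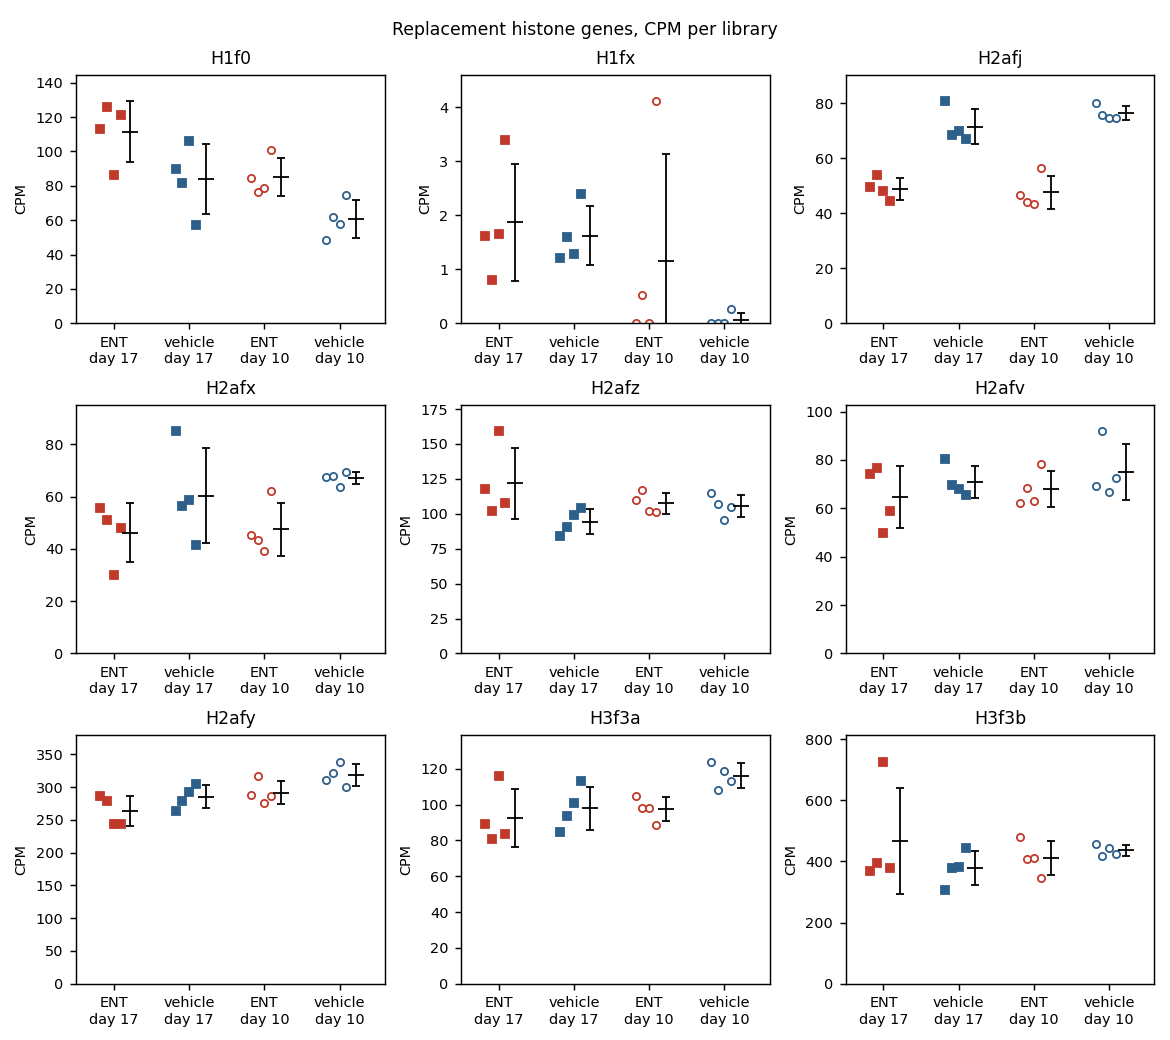
CPM per library (vertical axes, from 0) of the 9 replacement histone genes in ENT and vehicle at day 17 (filled squares) and day 10 (open circles), with mean and SD of 4 libraries beside the points; the lower SD bar of H1fx is clipped at 0. H2afj is lower in every ENT library than in any vehicle library of its day, and H3f3b shows 1 library of 727 CPM in ENT at day 17.

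H2afj was the 1 replacement gene called on either day, and it fell with ENT on both. It encodes an H2A variant that accumulates in senescent human fibroblasts. H2afj has 1 exon, of which 141 bases overlap the antisense gene Gm44364, and without strand their reads cannot be told apart there. At day 17 it had 49.5, 54.1, 48.1 and 44.4 CPM in ENT libraries, against 80.8, 68.6, 70.0 and 66.9 CPM in vehicle libraries. At day 10 it had 46.5, 44.3, 43.5 and 56.5 CPM in ENT libraries, against 80.1, 75.7, 74.8 and 74.8 CPM in vehicle libraries. The groups did not overlap on either day. The log2 fold change was −0.54 ± 0.13 at day 17 (edgeR, adjusted p = 0.00619) and −0.67 ± 0.12 at day 10 (edgeR, adjusted p = 0.00289), and the difference of effects was 0.13 ± 0.18 (edgeR, adjusted p = 0.798). The call held in every alternative run on both days and with any 1 of the 16 libraries left out. It stood among 1 called of 8 tested replacement genes at day 17, where 18.3% of all tested genes were called, and 1 of 8 at day 10, where 14.6% were (6.93% lower).

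Markers of other cell types moved with H2afj. Of 10 markers of plasmacytoid dendritic cells, 9 fell at each day, and their summed level was 596 to 741 CPM in ENT and 2250 to 2900 CPM in vehicle at day 17, and 510 to 940 CPM in ENT and 1320 to 2640 CPM in vehicle at day 10. Siglech, the lectin that defines these cells, averaged 45.8 ± 19.3 CPM in ENT and 446 ± 58.6 CPM in vehicle at day 17, and none of the 10 was at 0 in any group. Vehicle day 10 replicate 2, with the lowest marker sum of the vehicle libraries (1320 CPM), had 75.7 CPM of H2afj, within the range of the other vehicle libraries of that day. ENT day 10 replicate 4, with the highest marker sum of the ENT libraries (940 CPM), also had the highest H2afj of them, 56.5 CPM. Fewer cells of such a type and less RNA per cell cannot be told apart in these sorted bulk samples, and their part in the H2afj difference was not tested. Of all tested genes, 5.29% were called higher and 13% lower with ENT at day 17, and 7.63% higher and 6.93% lower at day 10. Lists of 3 or 4 genes are too short to set against these shares. The markers of other cells moved less uniformly. Of those tested, 1 of 3 tumour epithelial genes fell on each day, 1 of 4 fibroblast genes fell at day 17, and of 9 myeloid genes 1 rose and 2 fell at day 17 and 4 rose and 2 fell at day 10. Of 4 B cell genes 1 fell at day 17, and 1 rose and 1 fell at day 10. For endothelium, 2 of 3 genes fell at day 17 and 1 of 3 at day 10. Of markers of helper T cells, 2 of 3 fell at day 17 and 1 of 3 at day 10, and Cd4 itself averaged 7.49 ± 1.90 CPM in ENT and 48.1 ± 5.33 CPM in vehicle at day 17.

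H1f0 and H2afj, whose ENT effects had opposite signs, are shown with the 250 bases before their RefSeq start (GRCm38.p6; the H1f0 start there lies upstream of the GENCODE one), with every CCAAT box (CCAAT) and GC box (GGGCGG), on either strand, in capitals. TATA box (TATAAA), octamer (ATTTGCAT) and H1 box (AAACACA) letters were searched as well.
H1f0 (chr15:79027962-79028211, plus strand): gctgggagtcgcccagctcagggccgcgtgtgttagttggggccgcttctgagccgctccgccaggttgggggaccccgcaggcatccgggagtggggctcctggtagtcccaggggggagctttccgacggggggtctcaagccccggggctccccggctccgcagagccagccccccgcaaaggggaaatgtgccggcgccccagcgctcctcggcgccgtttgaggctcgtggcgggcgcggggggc
H2afj (chr6:136807998-136808247, plus strand): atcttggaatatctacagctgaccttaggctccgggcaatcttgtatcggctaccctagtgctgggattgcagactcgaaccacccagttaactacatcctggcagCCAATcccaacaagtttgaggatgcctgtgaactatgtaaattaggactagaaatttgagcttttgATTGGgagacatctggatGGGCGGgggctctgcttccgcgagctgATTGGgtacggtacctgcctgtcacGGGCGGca
The H2afj window held 3 CCAAT and 2 GGGCGG, and the H1f0 window held none of the 5 motifs. The bases between the end of the H1f0 window and its GENCODE start at 79028450 were not searched. CCAAT was present in 33.8% and GGGCGG in 32.7% of all 32851 promoter windows of that length. Of the 65 histone genes with a window, CCAAT was in 5 of 8 replacement and 47 of 57 clustered genes, and TATAAA in 1 of 8 and 28 of 57, against 12.4% of all windows. A match is a description of these letters only.

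H2afx, the H2A variant phosphorylated at DNA double-strand breaks, was lower in ENT group means without passing the test. It had 55.6, 50.9, 29.9 and 48.2 CPM in ENT libraries at day 17, against 85.0, 56.4, 58.7 and 41.5 CPM in vehicle libraries. At day 10 it had 45.4, 43.5, 39.2 and 62.2 CPM in ENT libraries, against 67.5, 67.9, 63.9 and 69.6 CPM in vehicle libraries, which did not overlap. The log2 fold change was −0.35 ± 0.21 at day 17 (edgeR, adjusted p = 0.252) and −0.49 ± 0.205 at day 10 (edgeR, adjusted p = 0.103), and without ENT day 10 replicate 4 the day 10 value was −0.63 (edgeR, adjusted p = 0.0399). For the mean of both ENT effects, added after the data were seen, it was −0.42 (edgeR, adjusted p = 0.0321), and the call was kept in 4 of 9 alternatives and in 4 of 16 fits that left out a library (adjusted p up to 0.125).

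H2afz and H2afv encode the H2A.Z proteins, placed at promoters of active and poised genes, and H2afy encodes macroH2A, known from silent chromatin. H2afz had 118, 102, 159 and 108 CPM in ENT libraries at day 17, against 83.9, 90.8, 98.8 and 104 CPM in vehicle libraries. The groups met at 102 and 104 CPM, and the log2 fold change of 0.34 ± 0.12 did not pass (edgeR, adjusted p = 0.0685). The 159 CPM came from ENT replicate 3, the shallowest library, in which Actb was 2684 CPM. H2afz passed at day 17 in 4 of 10 alternatives: DESeq2 (adjusted p = 0.0178), RLE scaling (0.0312), library size alone (0.0163) and a minimum count of 50 (0.0197). In edgeR it passed in 3 of 16 fits that left out a library: ENT day 10 replicate 4 (0.0463), ENT day 17 replicate 2 (0.0221) or vehicle day 17 replicate 4 (0.0324). Over the 16 fits the log2 fold change ran from 0.242 to 0.445, with adjusted p up to 0.14 in edgeR. At day 10 H2afz was 0.03 ± 0.12 (edgeR, adjusted p = 0.892). H2afv lay within −0.14 to −0.10 and H2afy within −0.13 to −0.11 on the log2 scale on both days, and adjusted p was 0.306 or more for both. These small H2afv and H2afy values, like those of H3f3b at day 10 and H3f3a at day 17, turn positive with library size alone.

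H3f3a and H3f3b encode the same replacement H3 protein, which chaperones place outside replication. H3f3a had 89.1, 80.5, 116 and 83.8 CPM in ENT libraries at day 17, against 84.5, 93.7, 101 and 113 CPM in vehicle libraries. At day 10 it had 105, 98.1, 98.1 and 88.8 CPM in ENT libraries, against 124, 108, 119 and 113 CPM in vehicle libraries, with no overlap but a log2 fold change of −0.25 ± 0.12 that did not pass (edgeR, adjusted p = 0.142). H3f3a passed at day 10 with receptor reads as a covariate (edgeR, −0.33, adjusted p = 0.0498). H3f3b had 368, 396, 727 and 380 CPM in ENT libraries at day 17, against 307, 380, 383 and 444 CPM in vehicle libraries. Its 727 CPM came from the shallowest library, in which Actb was 2684 CPM, against 491 to 898 CPM in the other 15 libraries, and the log2 fold change was 0.28 ± 0.17 (edgeR, adjusted p = 0.278), or 0.04 without that library. H1fx, a linker histone with 71 counts in all, had 1.87 ± 1.09 CPM in ENT and 1.62 ± 0.55 CPM in vehicle at day 17, and 1.16 ± 1.98 CPM in ENT and 0.0654 ± 0.131 CPM in vehicle at day 10, and was not tested.

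Summed over the 9 replacement genes, the level was 1220 ± 165 CPM in ENT and 1140 ± 55.7 CPM in vehicle at day 17, and 1160 ± 50.7 CPM in ENT and 1260 ± 15.4 CPM in vehicle at day 10. Without replicate 3, which had 1461 CPM, the ENT day 17 mean was 1140 CPM. Of the 8 tested, edgeR called 0 between days in vehicle, where 5.52% of tested genes were called, and 0 between days in ENT, where 13.7% were. At an unadjusted p under 0.05 the numbers were 2 and 1. DESeq2 called 1 and 1, where it called 12.9% and 17.2% of the genes it tested.

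The clustered genes were lower in number of reads and more variable. Their summed level was 352 ± 65.3 CPM in ENT and 314 ± 35.8 CPM in vehicle at day 17, and 259 ± 110 CPM in ENT and 275 ± 33.4 CPM in vehicle at day 10. ENT replicate 4 stood highest at day 10, at 422 CPM, against 192 to 225 CPM in the other 3 ENT libraries and 225 to 293 CPM in vehicle libraries. That library exceeded the other libraries of its group in each of the H1, H2A, H2B, H3 and H4 sums. Without it, with scaling recomputed, the ENT day 10 mean was 208 CPM.

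**Figure D3:**
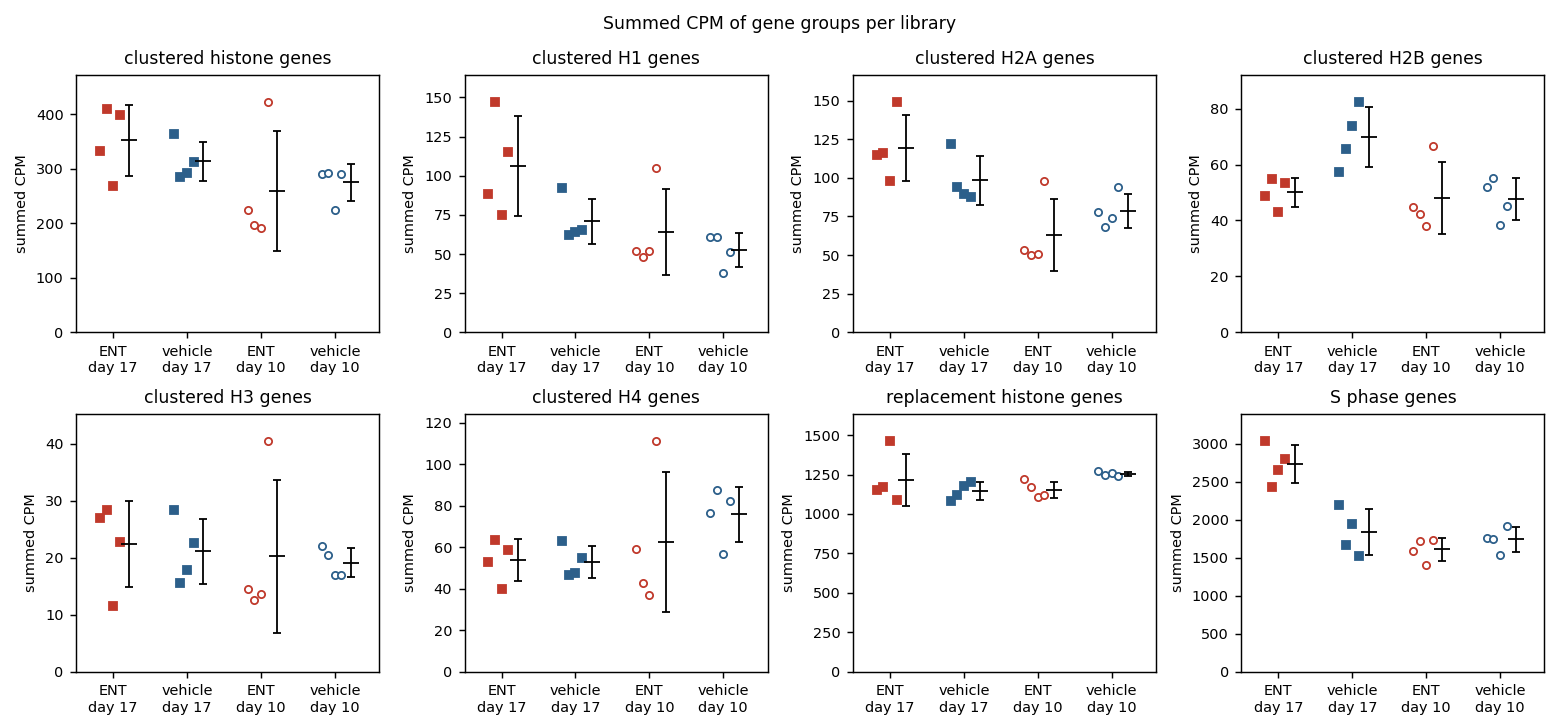
Summed CPM per library (vertical axes, from 0) of the clustered histone genes, their 5 families, the replacement genes and 22 S phase genes in ENT and vehicle at day 17 (filled squares) and day 10 (open circles), with mean and SD of 4 libraries. ENT day 10 replicate 4 lies above its group in all 5 clustered families, and S phase genes are higher in all 4 ENT libraries at day 17 (2430 to 3030 CPM) than in any vehicle library of that day (1520 to 2200 CPM).

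At day 17, 2 of 33 tested clustered genes rose with ENT and 0 fell, where 5.29% of all tested genes were called higher and 13% lower. Hist1h1b, a clustered linker histone, had 14.1, 27.5, 14.9 and 28.5 CPM in ENT libraries, against 13.1, 5.82, 8.75 and 4.46 CPM in vehicle libraries. Each ENT library lay above every vehicle library, the closest at 14.1 and 13.1 CPM. Its log2 fold change was 1.40 ± 0.47 (edgeR, adjusted p = 0.0472). Hist1h2ao, an H2A gene, had 65.3, 55.5, 64.7 and 77.3 CPM in ENT libraries, against 51.3, 43.1, 43.8 and 41.8 CPM in vehicle libraries. These groups did not overlap either, and the log2 fold change was 0.54 ± 0.18 (edgeR, adjusted p = 0.0383). Of the 50-base runs of Hist1h2ao, 75.4% are shared with other histone genes, and 138 of its bases overlap the antisense gene Gm19658, so its reads may be those of other genes.

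Both calls were near the threshold. In edgeR Hist1h1b kept its call in 4 of 16 fits that left out a library, with adjusted p from 0.0247 to 0.135. It was kept without vehicle day 10 replicate 2, ENT day 10 replicate 2 or 4, or vehicle day 17 replicate 1, and lost without any other. Hist1h2ao kept it in 8 of 16, with adjusted p from 0.0243 to 0.12, and lost it without replicate 3 of vehicle or ENT at day 10, replicates 1, 3 or 4 of ENT at day 17, or replicates 2, 3 or 4 of vehicle at day 17. With the replicate number as a block, adjusted p was 0.0733 for Hist1h1b. With a block within each day it was 0.0989 for Hist1h1b and 0.0629 for Hist1h2ao, and with no filter 0.0763 and 0.0851. The 250 bases before the start of Hist1h1b (RefSeq, GRCm38.p6) held 3 CCAAT boxes, a GC box, a TATA box and an H1 box, in capitals here. The H1 box was in 5 of 6 clustered H1 genes and in 6.25% of all windows.
Hist1h1b (chr13:21780626-21780875, minus strand): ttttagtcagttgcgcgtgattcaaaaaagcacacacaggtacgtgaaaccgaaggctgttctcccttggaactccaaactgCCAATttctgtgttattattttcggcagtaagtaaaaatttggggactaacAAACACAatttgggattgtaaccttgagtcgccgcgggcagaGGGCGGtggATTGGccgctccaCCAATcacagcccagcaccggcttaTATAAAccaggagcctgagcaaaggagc

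Genes of S phase, when clustered histones are made, were counted at day 17. Of 22 S phase genes tested, 14 rose with ENT and 0 fell, where 5.29% of all tested genes were called higher and 13% lower, with a median log2 fold change of 0.60, against −0.01 over all tested genes. Rrm2, a subunit of ribonucleotide reductase, averaged 149 ± 27.4 CPM in ENT and 74.1 ± 13.4 CPM in vehicle (log2 fold change 1.00 ± 0.22; edgeR, adjusted p = 0.00481). Mcm4 and Mcm6, subunits of the replicative helicase, rose by 0.51 ± 0.11 and 0.62 ± 0.13 on the log2 scale (edgeR, adjusted p = 0.0031 and 0.00391). The median of the 33 clustered genes was 0.16, with 20 positive and 13 negative values, where 49% of all tested genes were positive. The part of S phase genes in the 2 clustered calls was not tested.

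By family, values at day 17 ran in different directions. All 5 tested clustered H1 genes had positive log2 fold changes, from 0.28 to 1.40, and 7 of 8 H2A genes did, while 6 of 8 H2B genes had negative ones. The summed level of H1 genes was 106 ± 31.9 CPM in ENT and 70.9 ± 14.4 CPM in vehicle. That of H2A genes was 119 ± 21.3 CPM in ENT and 98.3 ± 16.1 CPM in vehicle, and libraries overlapped for both families. Hist1h2ao alone gave the H2A sum 65.7 CPM in ENT and 45.0 CPM in vehicle. The H2B sum was 43.1 to 54.9 CPM in ENT libraries and 57.3 to 82.3 CPM in vehicle libraries, with no overlap. Within the H2B sum, Hist1h2bc averaged 10.4 CPM in ENT and 17.4 CPM in vehicle, and Hist2h2be 7.84 CPM and 15.6 CPM. H3 and H4 sums were 22.4 ± 7.58 and 53.8 ± 10.2 CPM in ENT, against 21.1 ± 5.70 and 53.0 ± 7.68 CPM in vehicle. Only Hist1h1b and Hist1h2ao passed in edgeR among these.

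The lowest log2 fold changes at day 17 belonged to a pair of genes on chromosome 3 and did not pass. Hist2h2aa2, an H2A gene, had 5.47, 9.42, 1.66 and 7.46 CPM in ENT libraries, against 14.7, 18.3, 14.4 and 9.95 CPM in vehicle libraries, and the groups were separate. Its log2 fold change was −1.15 ± 0.41 (edgeR, adjusted p = 0.0556). The antisense genes Gm20632 and Gm47311 overlap Hist2h2aa2, and without strand their reads cannot be told apart there. Hist2h2be, an H2B gene, had 5.47, 6.19, 13.3 and 6.45 CPM in ENT libraries, against 16.5, 9.26, 13.4 and 23.3 CPM in vehicle libraries, overlapping only through ENT replicate 3. Its log2 fold change was −1.09 ± 0.40 (edgeR, adjusted p = 0.0689). DESeq2 called both (adjusted p = 0.0406 for Hist2h2aa2 and 0.0394 for Hist2h2be). With receptor reads as a covariate Hist2h2be passed in edgeR (−1.25, adjusted p = 0.0293). In edgeR Hist2h2be passed without ENT day 17 replicate 3 (0.0415) and Hist2h2aa2 without ENT day 10 replicate 4 (0.044), ENT day 17 replicate 2 (0.0462) or vehicle day 17 replicate 4 (0.0485).

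**Figure D4:**
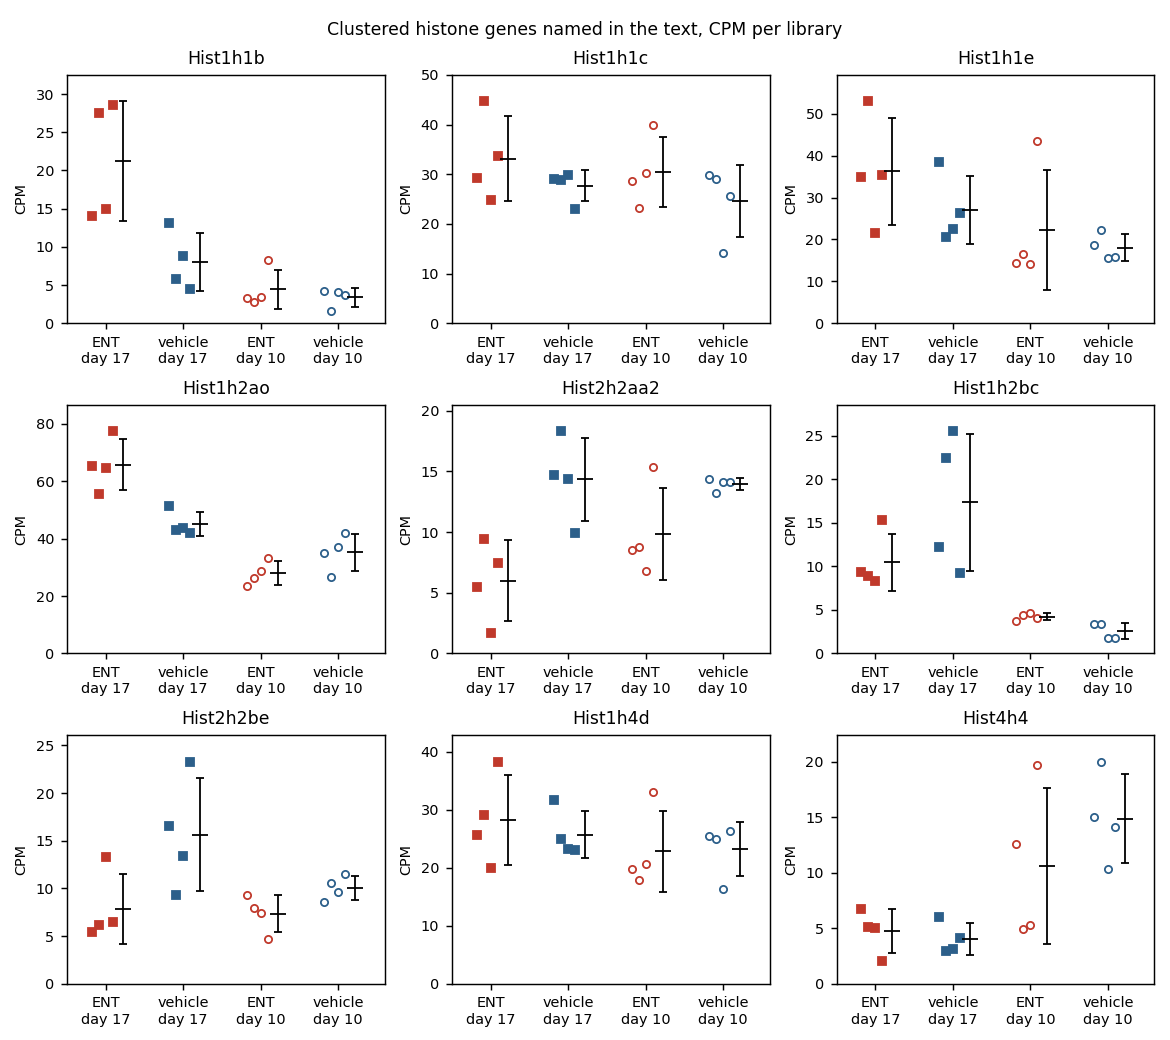
CPM per library (vertical axes, from 0) of 9 clustered histone genes in ENT and vehicle at day 17 (filled squares) and day 10 (open circles), with mean and SD of 4 libraries. Hist1h1b and Hist1h2ao are higher in all ENT than in all vehicle libraries at day 17, and Hist1h2bc is higher in all day 17 than in all day 10 libraries.

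At day 10 edgeR called 0 of 33 clustered genes, where 14.6% of tested genes were called, 7.63% higher and 6.93% lower. DESeq2 called 0 as well, where it called 20.7% of the genes it tested. In edgeR 1 gene, Hist1h2br, had an unadjusted p under 0.05. Hist1h2br, an H2B gene, averaged 8.09 ± 2.70 CPM in ENT and 3.76 ± 1.46 CPM in vehicle (log2 fold change 1.10 ± 0.46; edgeR, adjusted p = 0.105). The median log2 fold change of the clustered genes was −0.11, with 13 positive and 20 negative values. Over all tested genes the median was 0.06, and 52.8% had positive values. Without ENT day 10 replicate 4 the clustered median was −0.45, with 5 positive and 28 negative values. In that fit 0 clustered genes were called, where 23% of all tested genes were. All 9 tested H4 genes had negative values in the reported fit, from −0.80 to −0.02, and as they share 50-base runs their signs may not be independent. For Hist1h4d, nearest to 0, the value turned positive with DESeq2, RLE scaling, library size alone, a minimum count of 50, the 2 groups alone and the receptor covariate.

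The abundant clustered genes Hist1h1c, Hist1h1e and Hist1h4d did not pass on either day. Hist1h1c, a linker histone, averaged 33.1 ± 8.50 CPM in ENT and 27.7 ± 3.17 CPM in vehicle at day 17, and 30.5 ± 7.03 CPM in ENT and 24.7 ± 7.30 CPM in vehicle at day 10 (edgeR, adjusted p = 0.479 and 0.409). Hist1h1e, another linker histone, averaged 36.2 ± 12.9 CPM in ENT and 27.0 ± 8.05 CPM in vehicle at day 17, and 22.2 ± 14.3 CPM in ENT and 18 ± 3.17 CPM in vehicle at day 10 (edgeR, adjusted p = 0.397 and 0.552). Its 4 ENT day 10 libraries had 14.5, 16.5, 14.2 and 43.6 CPM, and the day 10 log2 fold change of 0.31 was −0.24 without the library of 43.6 CPM. With receptor reads as a covariate Hist1h1e passed at day 17 (edgeR, 0.81, adjusted p = 0.0203). Its exons overlap those of the H2B gene Hist1h2be on the same strand, so their reads cannot be told apart there. Hist1h4d, an H4 gene, averaged 28.3 ± 7.71 CPM in ENT and 25.7 ± 4.12 CPM in vehicle at day 17, and 22.8 ± 6.95 CPM in ENT and 23.3 ± 4.61 CPM in vehicle at day 10 (edgeR, adjusted p = 0.709 and 0.954).

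**Figure D5:**
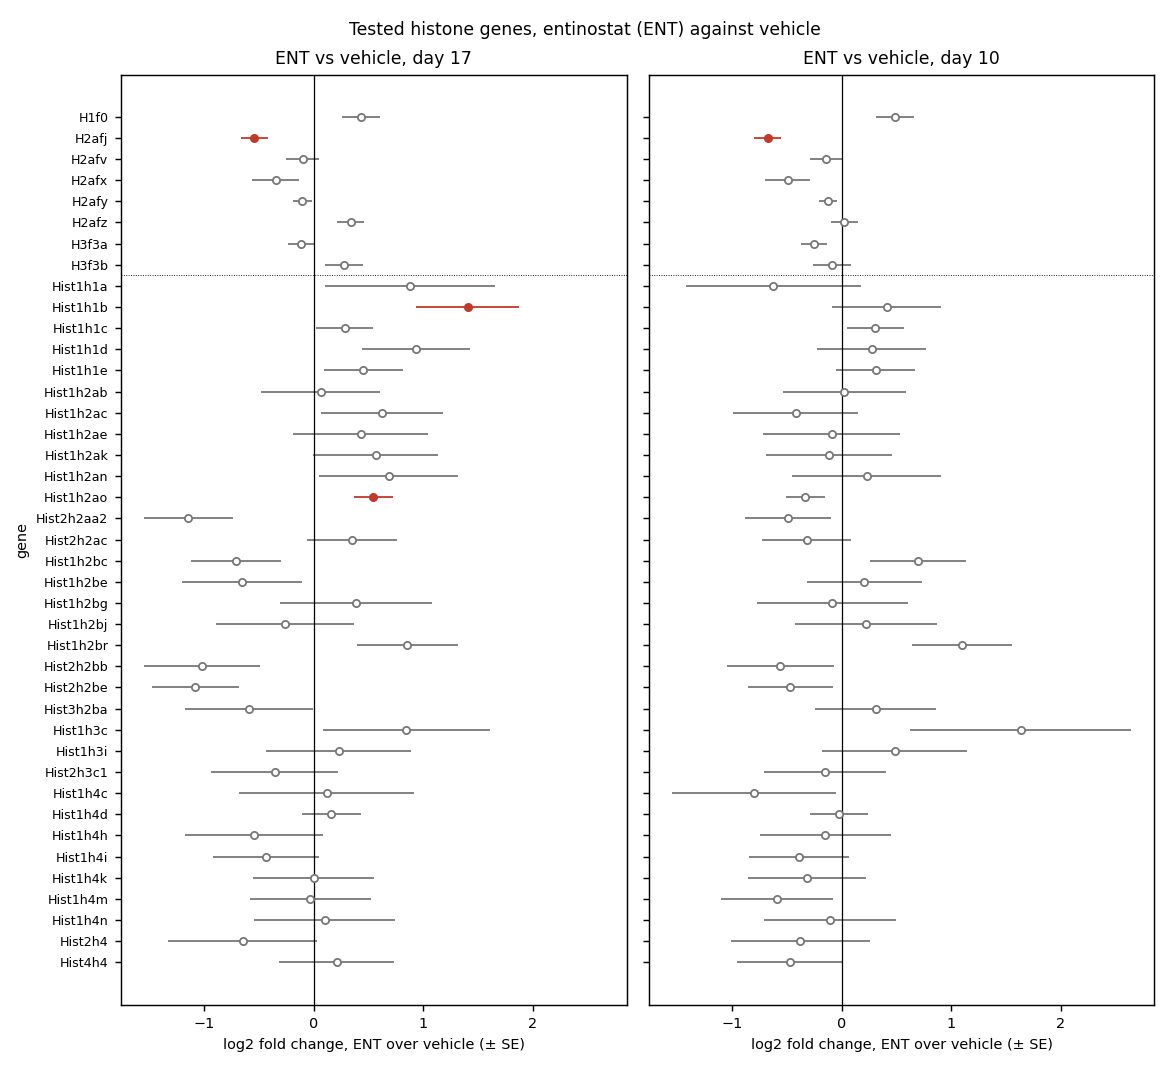
Log2 fold change of ENT over vehicle (horizontal axes, with SE bars) for the 41 tested histone genes at day 17 (left) and day 10 (right), replacement genes above the dotted line and clustered genes below it. Filled red points passed in edgeR: H2afj on both days, and Hist1h1b and Hist1h2ao at day 17.

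Between days in vehicle, 1 clustered gene rose and 1 fell of 33, where 1.89% of tested genes were called higher and 3.63% lower at day 17. Hist1h2bc, an H2B gene with 2 exons at chr13:23684199-23692908 (GRCm38), had 12.2, 22.5, 25.5 and 9.26 CPM at day 17, against 3.36, 3.37, 1.76 and 1.83 CPM at day 10. The lowest day 17 library was above every day 10 library, and the log2 difference was 2.73 ± 0.43 (edgeR, adjusted p = 0.00339), called without any 1 library. Hist4h4, an H4 gene that neighbours H2afj on chromosome 6, had 6.02, 2.91, 3.09 and 4.12 CPM at day 17, against 15.0, 20.0, 10.3 and 14.1 CPM at day 10. The groups were separate, and the log2 difference was −1.86 ± 0.50 (edgeR, adjusted p = 0.039). Hist4h4 lost the call without vehicle day 10 replicates 1, 2 or 3, ENT day 10 replicate 1, or vehicle day 17 replicates 2, 3 or 4 (adjusted p up to 0.114), and with library size alone (0.0645) or no filter (0.054). Fibroblast markers in the same vehicle libraries summed to 559 ± 580 CPM at day 17 (118 to 1410) and 64.8 ± 106 CPM at day 10 (8.81 to 224), with 2 of 4 called higher. The myeloid sum was 251 ± 50.7 CPM at day 17 and 173 ± 57.3 CPM at day 10. Log2 differences were positive in 9 of 9 tested myeloid genes, against 58.6% of all tested genes, and 0 were called. No fibroblast or myeloid marker was at 0 in either group, and their part in the 2 clustered calls between days was not tested.

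Between days in ENT, 3 of 33 clustered genes rose and 0 fell, where 3.26% of tested genes were called higher and 10.5% lower. Hist1h2ao had 65.3, 55.5, 64.7 and 77.3 CPM at day 17, against 23.4, 26.3, 28.7 and 33.2 CPM at day 10, a log2 difference of 1.23 ± 0.18 (edgeR, adjusted p = 0.000189). Hist1h1b had 14.1, 27.5, 14.9 and 28.5 CPM at day 17, against 3.35, 2.83, 3.39 and 8.22 CPM at day 10, a log2 difference of 2.24 ± 0.48 (edgeR, adjusted p = 0.00518). Both were separate between days and kept the call without any 1 library. Hist1h2bc had 9.32, 8.89, 8.29 and 15.3 CPM at day 17, against 3.72, 4.38, 4.63 and 4.11 CPM at day 10, a log2 difference of 1.32 ± 0.43 (edgeR, adjusted p = 0.0462). That call was kept only without vehicle day 17 replicate 1 or 4 of the 16 libraries. The 22 S phase genes summed to 2730 ± 252 CPM at day 17 and 1610 ± 149 CPM at day 10 in ENT, and 14 of them rose and 1 fell. Uhrf1, a partner of the maintenance DNA methyltransferase, rose by 1.41 ± 0.18 on the log2 scale (edgeR, adjusted p = 6.29e-05).

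The ENT effect was compared between days by an interaction term. In edgeR 0 of 33 clustered and 0 of 8 replacement genes differed, where 0.471% of tested genes did. DESeq2 called 1 and 0, where it called 5.64% of the genes it tested. At an unadjusted p under 0.05 there were 2 and 0. They were Hist1h2ao, at 0.87 ± 0.25 on the log2 scale (edgeR, adjusted p = 0.124), and Hist1h2bc, at −1.41 ± 0.60 (edgeR, adjusted p = 0.323). For Hist1h2ao the ENT effects were 0.54 at day 17 and −0.33 at day 10, and for Hist1h2bc −0.71 at day 17 and 0.70 at day 10. Of 22 S phase genes, 1 differed, the helicase gene Mcm5 (0.85 ± 0.19; edgeR, adjusted p = 0.0494). The passing of Hist1h1b at day 17 and not at day 10 is thus no shown difference between days (0.99 ± 0.69; edgeR, adjusted p = 0.58).

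For the mean of both ENT effects, a comparison added after the data were seen, 36.8% of tested genes were called, 17.8% higher and 18.9% lower. Of the clustered genes, Hist1h1b (0.91, adjusted p = 0.0456) and Hist1h2br (0.97, 0.027) rose, and Hist2h2aa2 (−0.82, 0.0301) and Hist2h2be (−0.78, 0.0376) fell, in edgeR and on the log2 scale. Of the replacement genes, H1f0 rose and H2afj and H2afx fell. These are 4 of 33 and 3 of 8. Of the 16 fits that left out a library, Hist1h1b kept this call in 5, Hist2h2aa2 in 4 and Hist2h2be in 3.

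Proteins that carry histones were followed through 20 chaperone genes, all tested. At day 17, 4 rose and 5 fell with ENT, where 5.29% of all tested genes were called higher and 13% lower. At day 10, 0 rose and 2 fell, where 7.63% were called higher and 6.93% lower. Daxx, a chaperone of the replacement H3 protein, fell by 0.76 ± 0.14 at day 17 and by 0.73 ± 0.13 at day 10 on the log2 scale (edgeR, adjusted p = 0.00114 and 0.00312). Ubn1, a subunit of the HIRA complex, which places the same protein, fell by 0.67 ± 0.15 at day 17 and by 0.51 ± 0.14 at day 10 (edgeR, adjusted p = 0.00431 and 0.026). Cabin1, a partner in that complex, fell by 0.58 ± 0.13 at day 17 (edgeR, adjusted p = 0.005). Between days in ENT, 3 chaperone genes rose and 5 fell, where 3.26% of all tested genes were called higher and 10.5% lower. Among the 3 was Chaf1a, the large subunit of the replication chaperone CAF-1, at 1.57 ± 0.34 (edgeR, adjusted p = 0.00462). Between days in vehicle, 0 rose and 2 fell, where 1.89% were called higher and 3.63% lower. Daxx was among the 2, falling by 0.53 ± 0.13 (edgeR, adjusted p = 0.029).

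Of 15 genes for transcription and processing of histone mRNA, 2 fell at day 17 and 4 at day 10 with ENT, and 0 rose on either day. Of all tested genes 13% were called lower at day 17, near the share of this list, and 6.93% at day 10. Cpsf3, the endonuclease that cuts pre-mRNA 3′ ends, those of histone genes included, fell by 0.46 ± 0.11 at day 17 and by 0.42 ± 0.11 at day 10 on the log2 scale (edgeR, adjusted p = 0.00692 and 0.0185). Cpsf1, a subunit of the same cleavage machinery, fell by 0.41 ± 0.10 at day 17 and by 0.37 ± 0.10 at day 10 (edgeR, adjusted p = 0.00799 and 0.0202). Cpsf2 fell by 0.49 ± 0.13 at day 10 (edgeR, adjusted p = 0.0209). Slbp, which encodes the stem-loop binding protein, averaged 139 ± 13.5 CPM in ENT and 117 ± 11.1 CPM in vehicle at day 17, and 150 ± 11.6 CPM in ENT and 171 ± 15.8 CPM in vehicle at day 10. In vehicle it fell by 0.55 ± 0.10 between days (edgeR, adjusted p = 0.00713). E2f1, a transcription factor of the G1 to S transition, rose by 2.04 ± 0.43 between days in ENT (edgeR, adjusted p = 0.00438). Of the 15 genes, 0 rose and 2 fell between days in vehicle, and 1 rose and 1 fell in ENT. Of all tested genes, 1.89% were called higher and 3.63% lower between days in vehicle, and 3.26% and 10.5% in ENT.

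Of 9 further variant genes in the table, 2 were tested, H2afy2 and Cenpa, and edgeR called 0 in any comparison, while for the mean of both effects H2afy2 had an unadjusted p of 0.0197 (adjusted p = 0.0526). H2afy2, which encodes a second macroH2A protein, averaged 4.08 ± 2.81 CPM in ENT and 1.31 ± 1.41 CPM in vehicle at day 17 (log2 fold change 1.72 ± 0.85; edgeR, adjusted p = 0.159). At day 10 it averaged 1.22 ± 0.646 CPM in ENT and 0.425 ± 0.391 CPM in vehicle (1.5 ± 1.00; edgeR, adjusted p = 0.265). Cenpa, the centromeric H3 variant, averaged 74.5 ± 13.7 CPM in ENT and 76.7 ± 16.1 CPM in vehicle at day 17, and 69.6 ± 3.86 CPM in ENT and 76.4 ± 7.03 CPM in vehicle at day 10.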

How the data were processed

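RNA of sorted CD8 T cells was made into SMART-seq v4 cDNA and Nextera XT libraries, per the labels' protocols, without strand or molecular identifiers. The authors deposited raw counts per gene, whole numbers not scaled between libraries. The submitters' processing notes name STAR and mm10. For the counting program and its annotation, nothing is given in the sources used here. The 72 genes were taken by symbol. The members, gene lists and alternatives were chosen with earlier results of these data known. Groups and replicate numbers came from the labels.

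The filterByExpr filter, with a minimum count of 10, left 17414 of 24028 genes. All 16 libraries were fitted in R 4.3.3 with edgeR 4.0.16 (quasi-likelihood test, a mean per group, TMM scaling, 12 residual degrees of freedom) and adjusted by Benjamini-Hochberg over all tested genes, at 0.05. Errors of log2 fold changes are SE and errors of CPM are SD. Depth (554593 to 6975904 counts) sets the precision of low genes, and intervals cover counting error and spread between libraries only. Replicates were checked for duplicates by chi-square over genes, and every pair differed by more than sampling noise (lowest ratio to its degrees of freedom 2.96). Lengths and stem-loops came from GENCODE M21 and promoter windows from RefSeq, matched by Entrez identifier for 65 of 72 genes, with motifs searched on both strands in 1 window per histone gene. The script was tested on simulated data.

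The genes named are the 9 replacement genes, clustered genes of at least 10 CPM on average, per comparison up to 3 higher and 3 lower clustered genes past the threshold, and up to 3 past it from each list. Hist1h2br, H2afy2, Cenpa, Slbp group levels, Actb, Cd8a, Cd4 and Siglech were named after their values were seen. Alternatives were DESeq2 1.42.0, no TMM (library size alone), RLE scaling, a minimum count of 50, no filter at all, only the groups compared, replicate blocks, a receptor covariate, each library left out, and, added after seeing the data, the mean of both ENT effects and only genes above the receptor level per kb.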

Additional observations from a re-analysis of the deposited data

Results flagged for a closer look

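In groups of 4 libraries, a library was noted where its gap to the nearest of the others took more than 0.829 of the group's range. Chance gives this in about 1 in 20 groups, so about 4 of the 80 groups looked at, and 11 were noted. ENT day 10 replicate 4 accounts for 4 of them: the clustered sum at 422 CPM (others 192 to 225 CPM), Hist1h1e at 43.6 CPM (others 14.2 to 16.5 CPM), Hist1h1b at 8.22 CPM (others 2.83 to 3.39 CPM) and H1fx at 4.11 CPM (others 0 to 0.515 CPM). ENT day 17 replicate 3, the shallowest library, had H3f3b at 727 CPM (others 368 to 396 CPM) and Hist2h2be at 13.3 CPM (others 5.47 to 6.45 CPM). Vehicle day 10 replicate 3 had the clustered sum at 225 CPM (others 290 to 293 CPM) and Hist1h4d at 16.4 CPM (others 24.9 to 26.4 CPM). The other values were Hist1h2bc at 15.3 CPM in ENT day 17 replicate 4 (others 8.29 to 9.32 CPM), Hist1h1c at 23.0 CPM in vehicle day 17 replicate 4 (others 28.9 to 29.9 CPM) and H1fx at 0.261 CPM in vehicle day 10 replicate 4 (others 0).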

How the results depend on the processing

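Read depth limits the clustered genes: 30 of 63 were not tested, and poly(A) priming leaves the size of any change in untailed histone mRNA unmeasured. H2afj kept its call at both days in all 10 alternatives and all 16 fits that left out a library (log2 −0.70 to −0.51 and −0.74 to −0.59 at day 10, −0.59 to −0.37 and −0.56 to −0.44 at day 17). Scaling moved the median of all tested genes, for ENT at day 10, to 0.22 with library size alone, against 0.06 with TMM, and for ENT at day 17 to 0.14, against −0.01. The cause of each change below was not tested.

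Calls of clustered genes at day 17, 2 in the reported fit, were 4 with DESeq2 or the receptor covariate, 1 with the replicate block, and 0 with no filter or with blocks within each day. The reported fit called 18.3% of all tested genes. DESeq2 called 21%, the covariate 17.8%, the block 15.6%, no filter 13.4% and blocks within each day 14.1%. Between days in vehicle, 2 became 1 with library size alone or no filter, 0 with a minimum count of 50 and 4 with the covariate. These fits called 2.81%, 3.2%, 6.53% and 5.03% of all tested genes, in that order, against 5.52% in the reported fit. Between days in ENT, 3 became 9 with the covariate, which called 14% of all tested genes, against 13.7% in the reported fit. For the difference of effects, 0 became 1 with DESeq2 or a minimum count of 50. These called 5.64% and 2.5% of the genes they tested, against 0.471% in the reported fit. For the mean of both effects, 4 became 2 with library size alone, 1 with a minimum count of 50 or the block, and 0 with blocks within each day. These fits called 32%, 29.4%, 32.1% and 29.7% of all tested genes, in that order, against 36.8% in the reported fit. Leaving out libraries gave 0 to 3 at day 17, 1 to 3 between days in vehicle, 2 to 5 between days in ENT and 1 to 3 for the mean. Over those fits 10.8% to 20.3% of all tested genes were called at day 17. Between days it was 1.17% to 14.9% in vehicle and 9.87% to 15.6% in ENT, and for the mean 27.5% to 42.5%.

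Replacement genes called at day 10, 1 in the reported fit, were 2 with DESeq2, RLE scaling, library size alone, a minimum count of 50 or the 2 groups alone, and 3 with the covariate. The reported fit called 14.6% of all tested genes, and these fits 20.7%, 13.7%, 12.1%, 11.7%, 10.6% and 9.7%, in that order. At day 17, 1 became 3 with DESeq2, RLE scaling, library size alone or a minimum count of 50, and 2 with the covariate. All tested genes were called there in shares of 21%, 16.5%, 16.1%, 21.8% and 17.8%, in that order. Between days in vehicle, 0 became 1 with DESeq2 or a minimum count of 50, and in ENT 0 became 1 with these, library size alone or the groups compared alone. The shares of all tested genes were 12.9% and 6.53% in vehicle, and 17.2%, 20.5%, 12.1% and 12.7% in ENT, in that order. Leaving out libraries gave 1 to 2 at day 10 and at day 17, 0 to 1 between days in vehicle and 2 to 4 for the mean. In those fits 5.07% to 23% of all tested genes were called at day 10, and the other shares are given above.

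H1f0 passed at day 10 with DESeq2 (0.542), RLE scaling (0.541), library size alone (0.648), a minimum count of 50 (0.612), the 2 groups alone (0.586) and the covariate (0.573), and at day 17 with the same except the groups alone (0.545, 0.544, 0.595, 0.617 and 0.528). Between days it passed in vehicle with DESeq2 (0.481) or a minimum count of 50 (0.537), and in ENT with DESeq2 (0.484), library size alone (0.539), a minimum count of 50 (0.542) or the groups alone (0.450). The H1f0 difference of effects turned positive with DESeq2 (0.00326), RLE scaling (0.00262) and a minimum count of 50 (0.00516). With libraries left out H1f0 ran from 0.421 to 0.632 at day 10, 0.333 to 0.573 at day 17, 0.335 to 0.580 between days in vehicle and −0.191 to 0.0496 for the difference.

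Values that did not pass and turned sign at day 10 were H3f3b with library size alone (0.0784), a minimum count of 50 (0.0436) or the groups alone (0.0146), H2afy with library size alone (0.0381) or a minimum count of 50 (0.00156), H2afz with the covariate (−0.0280), H2afv with library size alone (0.0191), and Hist1h4d with DESeq2 (0.0321), RLE scaling (0.0251), library size alone (0.130), a minimum count of 50 (0.0926), the groups alone (0.0699) or the covariate (0.107). At day 17 they were H3f3a with library size alone (0.0301) or a minimum count of 50 (0.0451), H2afy with DESeq2 (0.00253), library size alone (0.0408) or a minimum count of 50 (0.0579), and H2afv with DESeq2 (0.0144), RLE scaling (0.00216), library size alone (0.0484), a minimum count of 50 (0.0684) or the covariate (0.0113). With a library left out, signs turned within −0.173 to 0.0147 (H3f3b), −0.0220 to 0.0955 (H2afz), −0.197 to 0.0156 (H2afv), −0.238 to 0.127 (Hist1h4d), −0.238 to 0.480 (Hist1h1e) and −0.0581 to 0.630 (Hist1h1b) at day 10, and within −0.154 to 0.00156 (H2afv) and −0.0386 to 0.515 (Hist4h4) at day 17. The replacement sum of vehicle at day 10, 1260 CPM with TMM, was 1210 CPM with RLE scaling and 1130 CPM with library size alone.

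Whether equal replicate numbers pair the libraries depended on the genes used. Over all tested genes the deviations of ENT and vehicle at day 10 correlated by 0.185, 0.0657, 0.122 and 0.0828 for numbers 1 to 4, and over genes of at least 16 CPM by 0.254, 0.266, 0.232 and 0.265, where 3 of 4 matched best with their own number. At day 17 they were of both signs, so the numbers were not taken to pair libraries. Of all tested genes, the replicate block called 1561 at day 10 (2534 without it) and 2724 at day 17 (3190 without it). It ended the calls of Hist1h1b at day 17 (1.43, adjusted p = 0.0733) and Hist1h2bc between days in ENT (1.35, adjusted p = 0.0752), and, for the mean of both effects, those of Hist1h1b (0.902, adjusted p = 0.0763) and Hist2h2be (−0.765, adjusted p = 0.0685), where 1 of 4 clustered calls was left.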
